A study of Mus musculus with 6 samples.

Results

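The genes described here encode the structural proteins of caveolae, the small flask-shaped pits of the plasma membrane: the caveolins Cav1 and Cav2, the cavins Cavin1, Cavin2 and Cavin3, and the membrane-shaping proteins Ehd2 and Pacsin2. They are 7 of the 31115 genes in the table, and each of the 7 passed the filter on low values, a mean FPKM of 1 or more over the 6 libraries, which left 12608 genes for testing. The set was selected on the comparison itself, because Cav2 is among the largest decreases of the table, and the other 6 genes were added for their place in the same structure. The differences of these 7 genes are therefore given as a description, without a p-value. The 6 libraries fall into 2 groups of 3, taken at day 2 of normal culture. The libraries labelled Ad-SPTBN1 carry a genotype of βII spectrin overexpression, and those labelled Ad-scramble carry only that name as genotype. The labels describe neither construct, and separate cultures are not stated, so every p-value measures spread among libraries that may be technical repeats.

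Sptbn1, the gene for βII spectrin, went against the label. It measured 16.1, 16.5 and 15.7 FPKM (fragments scaled by exon length and library total) in the libraries labelled Ad-SPTBN1, against 50.8, 48.3 and 50.1 FPKM in those labelled Ad-scramble. Directions below are given by label, Ad-SPTBN1 against Ad-scramble, and are not those of a gain of the mouse Sptbn1 transcript. The values are for the mouse gene alone, and the construct is not described, so the change in total spectrin is not known from them. The cells are labelled as neonatal mouse cardiomyocytes, but the heart muscle actin Actc1 averaged 46.2 ± 2.27 FPKM in the libraries labelled Ad-SPTBN1 and 21.3 ± 0.405 FPKM in those labelled Ad-scramble. The fibroblast collagen Col1a1, a gene picked with its values known, stood at 2402 ± 103 and 2078 ± 152 FPKM in the same order (SD, n = 3 each). Of the 13 fibroblast markers, 7 were called lower and 1 higher, with a median difference of -0.12. Over all tested genes, 5.50% were called lower and 5.54% higher. The reads recovered from the FPKM values came to 19017137 to 19638670 per library labelled Ad-SPTBN1 and 18775307 to 19512480 per library labelled Ad-scramble. In such bulk libraries, fewer cells of a type and less RNA per cell cannot be told apart.

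Caveolae form where caveolin oligomers, which bind cholesterol, insert into the inner face of the plasma membrane and a coat of cavins assembles on them. Cavin-1 is needed for the pits, together with caveolin-1 in most tissues and with caveolin-3 in striated muscle, where cavin-4 joins the coat. Caveolae are abundant in endothelium, smooth muscle, fibroblasts, fat and muscle cells, where they buffer membrane tension, take up cargo and hold signalling proteins.

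Of the 7 caveolar genes, the libraries labelled Ad-SPTBN1 had less Cav2, Cavin3 and Cav1, while the main coat gene Cavin1, Cavin2, Ehd2 and Pacsin2 differed by under 0.10 on the log2(FPKM + 1) scale. By sign, 5 differences were negative and 2 positive, with a median of -0.08 on that scale, against 0.002 over all tested genes. Of the 2 positive ones, that of Cavin2 was -0.004 without Ad-SPTBN1 replicate 1. In the test over all genes, 3 of the 7 had an adjusted p under 0.05 and were lower, and 0 were higher. Over the 12608 tested genes that rule called 11.0%, with 5.50% lower and 5.54% higher. Nothing is read from this count, since the same comparison chose the set. The groups did not overlap for 5 of the 7 genes, and they did not overlap for 32.3% of all tested genes. Without Ad-SPTBN1 replicate 2, Ad-scramble replicate 1 or Ad-scramble replicate 3 the count of called members was 2, and Cav1 was the gene lost.

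**Figure D1:**
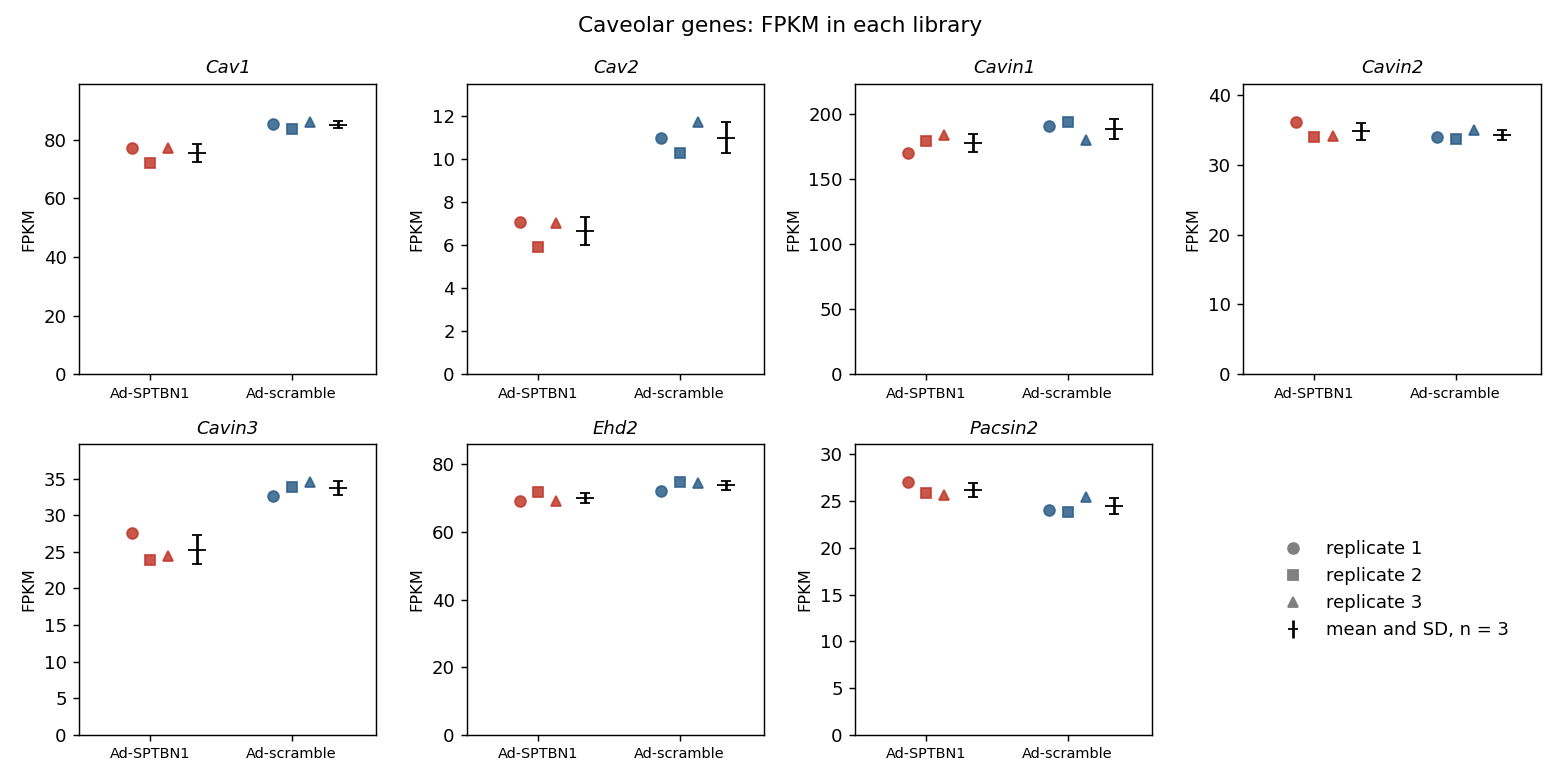
FPKM (vertical axes, from 0) of the 7 caveolar genes in each library, with the libraries labelled Ad-SPTBN1 on the left and those labelled Ad-scramble on the right; bars give the mean and SD of 3 libraries. Cav2, Cavin3, Cav1 and Ehd2 lie lower in the left group without overlap, Pacsin2 lies higher without overlap, and Cavin1 and Cavin2 overlap.

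Cav2 encodes caveolin-2, which joins caveolin-1 in mixed oligomers and depends on it to reach the cell surface. It stood at 7.08, 5.90 and 7.0 FPKM in the libraries labelled Ad-SPTBN1, against 10.97, 10.3 and 11.7 FPKM in those labelled Ad-scramble. All 3 libraries labelled Ad-SPTBN1 lay below all 3 of the others, and their mean was 60.6% of the Ad-scramble mean. The log2 difference was -0.65 ± 0.07 (SE, n = 3 per group), and 30 of the 12608 tested genes had a larger decrease. These values rest on 450, 372 and 431 reads in the libraries labelled Ad-SPTBN1 and 693, 624 and 725 reads in those labelled Ad-scramble. The spread between replicates was 9.91% of the mean in the libraries labelled Ad-SPTBN1 and 6.68% in those labelled Ad-scramble, where counting error alone gives 4.89% and 3.83%. The nearest libraries of the 2 groups were Ad-SPTBN1 replicate 1, at 7.08 FPKM, and Ad-scramble replicate 2, at 10.3 FPKM.

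Cav1 encodes caveolin-1, the main structural caveolin outside striated muscle. Its level was 77.1, 72.1 and 77.3 FPKM in the libraries labelled Ad-SPTBN1, against 85.4, 83.8 and 86.2 FPKM in those labelled Ad-scramble. The groups did not overlap, and the Ad-SPTBN1 mean was 88.7% of the Ad-scramble mean, or -0.17 ± 0.03 on the log2 scale (SE, n = 3 per group). The FPKM of Cav2 per FPKM of Cav1 was 0.0918, 0.0818 and 0.0906 in the libraries labelled Ad-SPTBN1 and 0.128, 0.123 and 0.136 in those labelled Ad-scramble. Cav2 transcript thus made up a smaller amount per Cav1 transcript in each library labelled Ad-SPTBN1, with a mean ratio 0.682 times that of the Ad-scramble libraries.

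Cav1 and Cav2 are neighbours in the genome. In the GRCm38 build Cav2 (ENSMUSG00000000058) lies on chromosome 6 from 17281185 to 17289115 and Cav1 (ENSMUSG00000007655) from 17306335 to 17341452, both on the plus strand, with 17219 bases between them. The 250 bases before each start are shown because the 2 genes share a locus, were both lower, and differed in size of decrease. They are from RefSeq (GRCm38.p6, plus strand, 5′ to 3′), at chr6:17280935-17281184 for Cav2 and chr6:17306085-17306334 for the first of 2 listed Cav1 starts. Capitals mark matches, on either strand, to the GC box GGGCGG, the CCAAT box CCAAT, the TATA box TATAAA or the AP-1 site TGACTCA. These motifs were picked after the sequences had been seen, and matches to different motifs do not overlap here.
Cav2: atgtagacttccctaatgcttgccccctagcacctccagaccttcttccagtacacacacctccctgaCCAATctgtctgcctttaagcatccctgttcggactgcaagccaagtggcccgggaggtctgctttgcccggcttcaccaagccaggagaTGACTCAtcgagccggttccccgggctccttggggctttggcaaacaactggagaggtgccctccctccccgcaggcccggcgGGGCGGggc
Cav1: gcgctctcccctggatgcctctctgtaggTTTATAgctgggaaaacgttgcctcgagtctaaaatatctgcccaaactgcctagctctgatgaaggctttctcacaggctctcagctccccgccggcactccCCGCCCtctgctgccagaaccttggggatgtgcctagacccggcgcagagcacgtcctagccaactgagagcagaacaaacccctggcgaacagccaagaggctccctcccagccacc
The Cav2 stretch held 1 GC box, beginning 9 bases before the start, 1 AP-1 site at 92 bases and 1 CCAAT box at 182 bases. The Cav1 stretch held 1 GC box at 118 bases and 1 TATA box at 221 bases, both on the minus strand. The window before the second Cav1 start, chr6:17307390-17307639, held 0 matches to the 4 motifs, with a GC content of 60.8%. Of 32851 RefSeq windows of the same length, 32.7% held a GC box, 33.8% a CCAAT box, 12.4% a TATA box and 4.46% an AP-1 site. GC content was 62.0% for Cav2 and 59.6% for the first Cav1 window, against a median of 52.4% over all windows. A match is a description of the letters and does not show binding. RefSeq promoters were at hand for 6 of the 7 members, and the remaining one is Cavin3.

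Apart from Cav1, none of the tested genes around Cav2 was called lower. The table holds 17 other genes that start within 500000 bases of the Cav2 start, and 5 of them were tested, Cav1 among them. Tes, which encodes the focal adhesion protein testin and starts 216036 bases before Cav2, stood at 1.98, 2.09 and 1.95 FPKM in the libraries labelled Ad-SPTBN1, against 1.55, 1.47 and 1.56 FPKM in those labelled Ad-scramble. It rose by 0.25 ± 0.06 on the log2 scale (SE, limma adjusted p = 0.0437), and the call ended whichever library was left out, with adjusted p between 0.0903 and 0.13. Capza2, an actin capping protein, averaged 23.7 ± 0.872 FPKM with the Ad-SPTBN1 label and 24.9 ± 1.42 FPKM with the Ad-scramble label (SD, n = 3 each, limma adjusted p = 0.456). St7 (2.69 ± 0.125 and 2.71 ± 0.0609 FPKM, limma adjusted p = 0.956) and the unclassified RNA Gm27960 (3.29 ± 1.26 and 2.44 ± 0.482 FPKM, limma adjusted p = 0.411) did not pass either, in the same order of groups.

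The cavins form the coat that covers caveolae, and they divided. Cavin1 encodes cavin-1, without which caveolae do not form, and was the most abundant member (ENSMUSG00000004044, chromosome 11, 100956733 to 100970887, minus strand). It stood at 170.1, 179.2 and 183.9 FPKM in the libraries labelled Ad-SPTBN1, against 191.0, 194.3 and 180.2 FPKM in those labelled Ad-scramble. The highest library labelled Ad-SPTBN1 lay above the lowest labelled Ad-scramble, and the log2 difference was -0.08 ± 0.04 (SE, n = 3 per group).

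Cavin2 encodes cavin-2, also called SDPR, which binds phosphatidylserine and can bend membranes (ENSMUSG00000045954, chromosome 1, 51289126 to 51302960, plus strand). Its level was 36.2, 34.0 and 34.2 FPKM in the libraries labelled Ad-SPTBN1, against 33.9, 33.7 and 35.0 FPKM in those labelled Ad-scramble. The groups overlapped, and the log2 difference was 0.02 ± 0.03 (SE, n = 3 per group).

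Cavin3 encodes cavin-3, also known as a binding protein of protein kinase C delta, which joins cavin-1 in the coat. It stood at 27.5, 23.9 and 24.4 FPKM in the libraries labelled Ad-SPTBN1, against 32.6, 33.8 and 34.5 FPKM in those labelled Ad-scramble. All libraries labelled Ad-SPTBN1 were below the others, and their mean was 75.1% of the Ad-scramble mean, or -0.40 ± 0.05 on the log2 scale (SE, n = 3 per group). The values rest on 750 to 872 reads in the libraries labelled Ad-SPTBN1 and 1025 to 1062 in those labelled Ad-scramble. The exons of Cavin3 (ENSMUSG00000037060, chromosome 7, 105480083 to 105482300, minus strand) lie for 22.5% of their bases opposite Gm45667. The use of strand in counting is not given in the sources used here, so reads of this pair cannot be told apart. Gm45667 itself was listed at no more than 0.123 FPKM in any library.

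Per FPKM of Cavin1, Cavin3 stood at 0.162, 0.133 and 0.133 in the libraries labelled Ad-SPTBN1, against 0.171, 0.174 and 0.191 in those labelled Ad-scramble, without overlap. The ratio of Cavin2 to Cavin1 was 0.213, 0.190 and 0.186 in the libraries labelled Ad-SPTBN1 and 0.178, 0.173 and 0.194 in those labelled Ad-scramble, and these overlapped. Among the cavins, then, the amount per Cavin1 transcript was lower in every library labelled Ad-SPTBN1 for Cavin3 but not for Cavin2.

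**Figure D2:**
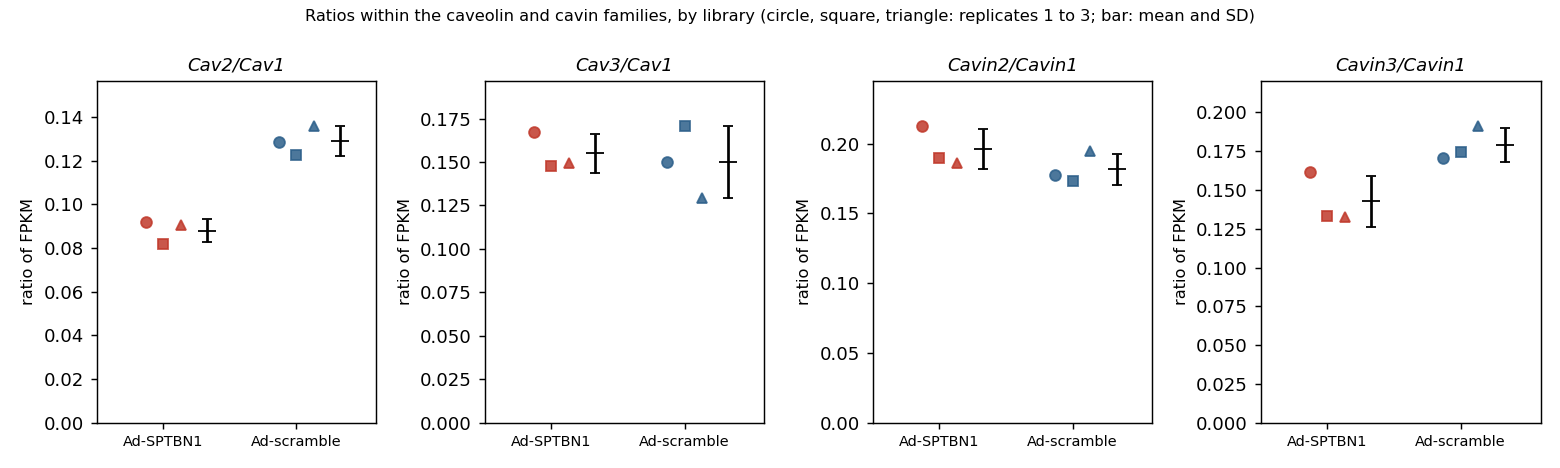
Ratio of FPKM values (vertical axes, from 0) of Cav2 and Cav3 to Cav1 and of Cavin2 and Cavin3 to Cavin1 in each library, libraries labelled Ad-SPTBN1 left and Ad-scramble right, with the mean and SD of 3. Cav2/Cav1 and Cavin3/Cavin1 are lower on the left without overlap, while Cav3/Cav1 and Cavin2/Cavin1 overlap.

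The 2 membrane-shaping members differed by under 0.10 on the log2 scale. Ehd2 encodes an ATPase that rings the neck of caveolae and steadies them at the surface (ENSMUSG00000074364, chromosome 7, 15946958 to 15967567, minus strand). It stood at 69.0, 71.8 and 69.1 FPKM in the libraries labelled Ad-SPTBN1, against 72.2, 74.7 and 74.6 FPKM in those labelled Ad-scramble. The groups lay apart by a narrow margin, with a difference of -0.08 ± 0.03 on the log2 scale (SE, n = 3 per group).

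Pacsin2 encodes an F-BAR protein that bends membrane at the caveolar neck (ENSMUSG00000016664, chromosome 15, 83375607 to 83464606, minus strand). Its level was 27.0, 25.8 and 25.6 FPKM in the libraries labelled Ad-SPTBN1, against 24.0, 23.8 and 25.4 FPKM in those labelled Ad-scramble. It was the only member whose libraries labelled Ad-SPTBN1 all lay above those labelled Ad-scramble, by 0.09 ± 0.04 on the log2 scale (SE, n = 3 per group). Its recovered reads were whole numbers in 2 of the 6 libraries, whereas those of each other member were whole in 6 of 6, so the exon length used for Pacsin2 may not be that of the authors.

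Set side by side per length, the order of levels was nearly the same in both groups. In the libraries labelled Ad-SPTBN1 it ran Cavin1, Cav1, Ehd2, Cavin2, Pacsin2, Cavin3 and Cav2, and the ranges of Pacsin2 (25.6 to 27.0 FPKM) and Cavin3 (23.9 to 27.5 FPKM) overlapped. In the libraries labelled Ad-scramble Cavin3 stood after Cavin2, its range of 32.6 to 34.5 FPKM overlapping the 33.7 to 35.0 FPKM of Cavin2, and Pacsin2 came next. No other neighbours in either order overlapped. The 7 levels summed to 412.7 to 421.6 FPKM in the libraries labelled Ad-SPTBN1 and 447.7 to 454.4 FPKM in those labelled Ad-scramble, and Cavin1 was the largest single part of each sum. Within the libraries labelled Ad-SPTBN1, replicate 2 was the lowest for 4 of the 7 members, for Cavin2 by only 34.0 against 34.2 FPKM. The share over all tested genes was not counted, so nothing is read from this.

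**Figure D3:**
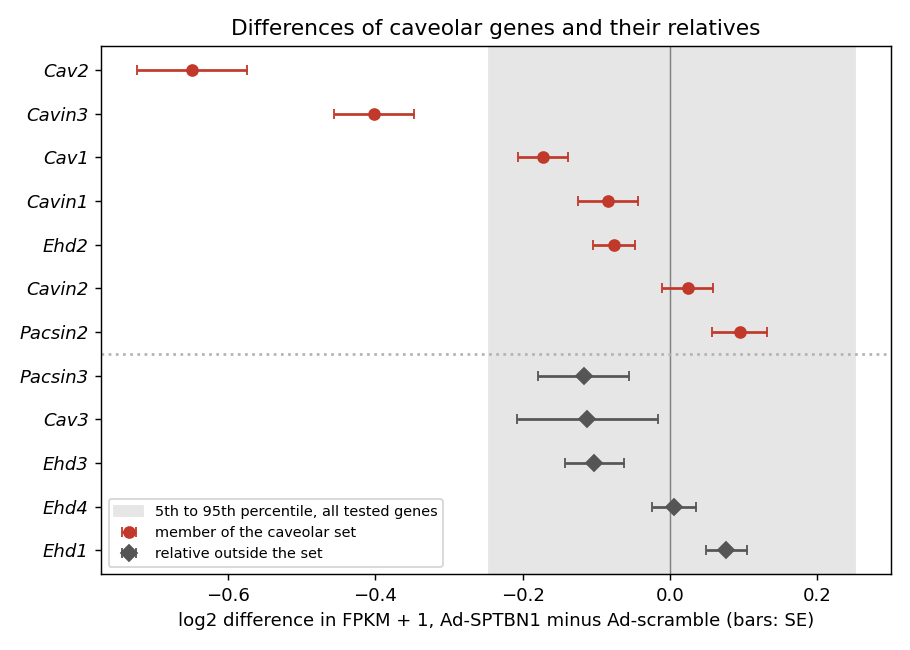
Log2 difference in FPKM + 1, Ad-SPTBN1 minus Ad-scramble (horizontal axis), for the 7 caveolar genes (circles) and 5 tested relatives outside the set (diamonds); bars are SE and the grey band spans the 5th to 95th percentile of all tested genes, -0.25 to 0.25. Cav2 and Cavin3 lie below the band, and the other 10 genes lie within it.

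None of the relatives of these genes passed the test. Of 7 relatives, 5 were tested, and 0 were called, with a median difference of -0.10. Over all 12608 tested genes, 3394 had an unadjusted limma p under 0.05, among them 2 of these 5 relatives, and 0 relatives were called under the 16 alternatives, voom included. Cav3, the caveolin of muscle, stood at 12.9, 10.6 and 11.6 FPKM in the libraries labelled Ad-SPTBN1, against 12.8, 14.3 and 11.2 FPKM in those labelled Ad-scramble (log2 difference -0.11 ± 0.10, limma adjusted p = 0.505). Its groups overlapped. The tested cardiomyocyte markers ran from 111.1% of the Ad-scramble level for Myl7, which was not called, to 216.9% for Actc1. The ratio of Cav3 to Cav1 averaged 0.155 ± 0.0110 in the libraries labelled Ad-SPTBN1 and 0.150 ± 0.0208 in those labelled Ad-scramble (SD, n = 3 each). Cavin4, the cavin of muscle, was below the level for testing, at 0.957 ± 0.0860 FPKM in the libraries labelled Ad-SPTBN1 and 0.910 ± 0.0763 FPKM in those labelled Ad-scramble.

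Ehd1, a recycling ATPase of the same family as Ehd2, averaged 81.7 ± 0.696 FPKM with the Ad-SPTBN1 label and 77.5 ± 2.06 FPKM with the Ad-scramble label (limma adjusted p = 0.133). Ehd3 (10.5 ± 0.246 and 11.4 ± 0.401 FPKM, adjusted p = 0.15) and Ehd4 (29.95 ± 0.327 and 29.8 ± 0.758 FPKM, adjusted p = 0.935) did not pass in limma either. Pacsin3, the muscle PACSIN, measured 4.84 ± 0.0660 and 5.35 ± 0.491 FPKM in the same order (limma adjusted p = 0.279). Pacsin1, the neuronal form, was at 0.131 ± 0.0469 and 0.0989 ± 0.0271 FPKM and was not tested (SD, n = 3 each).

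Among 101 genes of 7 lists around caveolae, which include these relatives, 93 were tested, and 4 rose and 15 fell, 20.4% of those tested against 11.0% over all tested genes. Their median differences ran from -0.10 to -0.02 per list. The lists were chosen with earlier results of these data known, so nothing is read from the share called. With a filter at a mean of 5 FPKM, that share was 26.4% against 17.7% of all tested genes. The count of 19 was 6, 8 and 4 without Ad-SPTBN1 replicate 1, 2 or 3, which is 6.45%, 8.60% and 4.30% of the list genes, against 5.66%, 5.23% and 5.20% of all tested genes. It was 6, 9 and 10 without Ad-scramble replicate 1, 2 or 3, which is 6.45%, 9.68% and 10.8% against 4.93%, 6.85% and 6.80%. The share called in the lists was thus below that of all tested genes without Ad-SPTBN1 replicate 3, and near it without Ad-SPTBN1 replicate 1.

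The list of scission, kinases and actin linkage had 2 of 15 higher and 0 lower. The tyrosine kinase Abl2 stood at 10.3, 9.64 and 10.4 FPKM in the libraries labelled Ad-SPTBN1, against 9.09, 8.69 and 8.94 FPKM in those labelled Ad-scramble, and rose by 0.17 ± 0.04 (SE, limma adjusted p = 0.0483), and this call was lost without any 1 library. Flna, the filamin that ties caveolin-1 to actin, stood at 180.3 ± 4.05 and 183.8 ± 6.39 FPKM (limma adjusted p = 0.653). The dynamin Dnm2, which cuts caveolae and coated pits from the membrane, measured 20.8 ± 0.194 and 20.3 ± 0.171 FPKM (SD, n = 3 each, limma adjusted p = 0.558), in the libraries labelled Ad-SPTBN1 and Ad-scramble. Flna and Dnm2 were chosen after their values were seen.

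Of 10 flotillins, stomatin and raft proteins, 1 rose and 3 fell. The hyaluronan receptor Cd44 was 31.9, 31.9 and 32.2 FPKM in the libraries labelled Ad-SPTBN1, against 27.4, 26.6 and 26.7 FPKM in those labelled Ad-scramble, and rose by 0.24 ± 0.03 (SE, limma adjusted p = 0.00343). Flot1, a flotillin that marks membrane domains other than caveolae, was 16.2, 15.5 and 15.4 FPKM in the libraries labelled Ad-SPTBN1, against 19.2, 18.2 and 17.5 FPKM in those labelled Ad-scramble, and fell by 0.21 (limma adjusted p = 0.0259). The prion protein gene Prnp fell by 0.12 and the surface glycoprotein Thy1 fell by 0.19 (limma adjusted p = 0.0329 and 0.0328). The call on Prnp was lost without any 1 library, that on Thy1 without any but Ad-scramble replicate 3, and that on Flot1 without any but Ad-SPTBN1 replicate 1 or Ad-scramble replicate 3.

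Of 27 tested receptors, channels and signalling proteins reported in caveolae, 0 rose and 6 fell, by small amounts. The BMP receptor Bmpr1a was 17.2, 17.3 and 16.7 FPKM in the libraries labelled Ad-SPTBN1, against 19.1, 19.6 and 19.8 FPKM in those labelled Ad-scramble, and fell by 0.18 (limma adjusted p = 0.0142). Adcy6, an adenylyl cyclase, fell by 0.23 (0.0148), the PDGF receptor Pdgfrb fell by 0.13 (0.0188) and the G protein subunit Gnaq fell by 0.19 (0.0197, all limma adjusted p). The call on Bmpr1a was lost without Ad-SPTBN1 replicate 3, and that on Adcy6 without Ad-SPTBN1 replicate 1 or 3 or Ad-scramble replicate 1. The call on Pdgfrb was lost without any but Ad-scramble replicates 2 and 3, and that on Gnaq without any but Ad-SPTBN1 replicate 2 and Ad-scramble replicate 1. Of the genes that fell here, Pdgfra is also on the fibroblast list and Pdgfrb and Abcc9 on that of smooth muscle and pericytes.

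Of 12 genes of cholesterol uptake and transport, 0 rose and 4 fell. Apoe, the carrier of lipoprotein lipid, stood at 112.3, 117.7 and 115.6 FPKM in the libraries labelled Ad-SPTBN1, against 134.6, 138.0 and 129.8 FPKM in those labelled Ad-scramble, and fell by 0.22 (limma adjusted p = 0.00824). The sterol carriers Stard4 and Npc2 fell by 0.19 and 0.12, and the lipoprotein receptor Lrp1 fell by 0.13 (limma adjusted p = 0.0206, 0.0255 and 0.0237). The call on Npc2 was lost without any 1 library, that on Stard4 without any but Ad-scramble replicates 2 and 3, and that on Lrp1 without any but Ad-scramble replicate 2.

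The clathrin route of uptake had 1 of 17 higher and 1 lower. Ap2b1, a subunit of the clathrin adaptor, stood at 18.8, 19.5 and 19.7 FPKM in the libraries labelled Ad-SPTBN1, against 15.9, 14.6 and 15.8 FPKM in those labelled Ad-scramble, and rose by 0.31 ± 0.04 (SE, limma adjusted p = 0.00613). Hip1, which links coated pits to actin, fell by 0.19 (limma adjusted p = 0.0393), and of 7 membrane repair genes the muscle protein Dysf, dysferlin, fell by 0.15 (limma adjusted p = 0.0398). Both of these calls were lost without any 1 library. Of the genes named from these lists, Cd44, Apoe and Ap2b1 were called without each of the 6 libraries in turn.

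**Figure D4:**
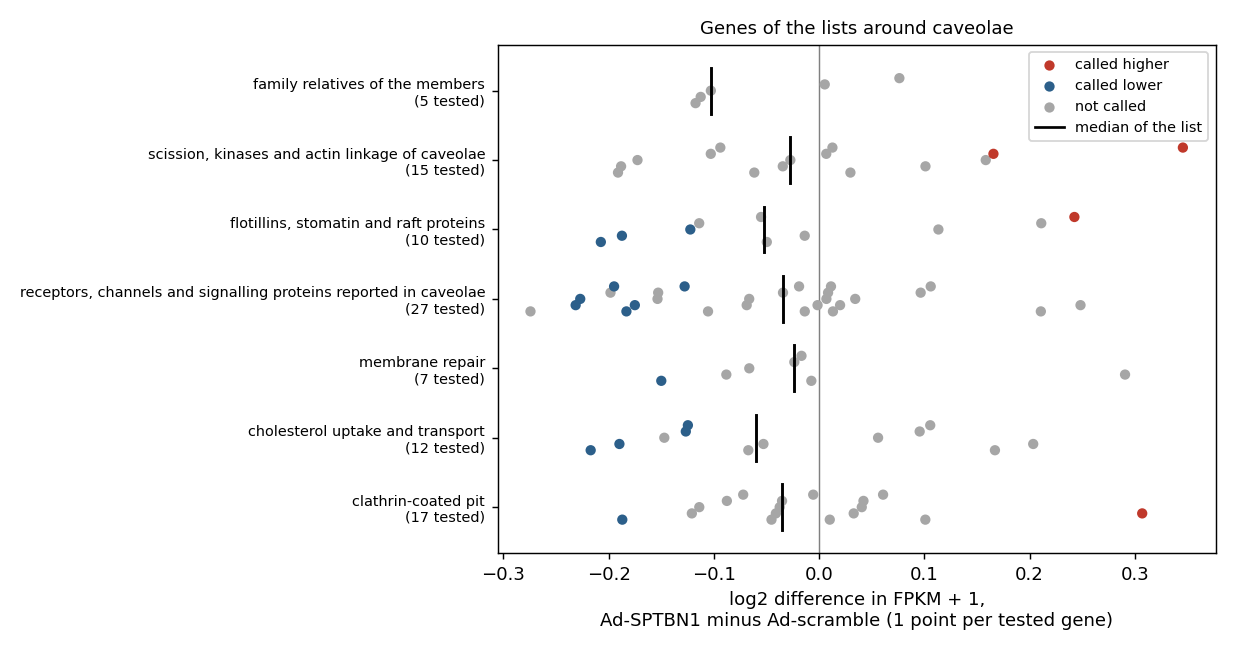
Log2 difference in FPKM + 1, Ad-SPTBN1 minus Ad-scramble (horizontal axis), of each tested gene in the 7 lists around caveolae; red points were called higher, blue points called lower, grey points not called, and black bars are list medians. Genes called lower lie between -0.23 and -0.12, and the list of receptors, channels and signalling proteins holds 6 of the 15 genes that fell.

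Markers of cell types known for caveolae were counted in the same test, which called 5.50% of all tested genes lower and 5.54% higher. Fibroblast markers had 1 of 13 higher and 7 lower, smooth muscle and pericyte markers 1 of 12 higher and 4 lower, and endothelial markers 0 of 12 higher and 1 lower. Their summed levels were 4693 to 4932 FPKM in the libraries labelled Ad-SPTBN1 and 4450 to 4775 FPKM in those labelled Ad-scramble for fibroblasts, and 1870 to 1898 against 1917 to 1941 FPKM for smooth muscle and pericytes, in that order. Acta2 made up most of the smooth muscle and pericyte sums, at 1586 to 1614 against 1616 to 1639 FPKM. It was not called (limma adjusted p = 0.558). The fibroblast sum turned on Col1a1: without it, a choice made after its values were seen, the other 12 markers summed to 2385 to 2458 FPKM in the libraries labelled Ad-SPTBN1 and 2534 to 2559 FPKM in those labelled Ad-scramble, lower without overlap. For endothelium the summed levels were 149 to 154 FPKM in the libraries labelled Ad-SPTBN1 and 142 to 152 FPKM in those labelled Ad-scramble. The 1 endothelial gene called was Plvap, which forms the diaphragm of endothelial caveolae. It stood at 5.97, 6.87 and 7.90 FPKM in the libraries labelled Ad-SPTBN1, against 9.51, 10.3 and 8.45 FPKM in those labelled Ad-scramble, and fell by 0.40 (limma adjusted p = 0.045), and the call held only when Ad-SPTBN1 replicate 3 was left out, with adjusted p between 0.0363 and 0.119 over the 6. The endothelial cadherin Cdh5, picked with its values known, stood at 14.9 ± 0.436 and 15.0 ± 0.992 FPKM in the libraries labelled Ad-SPTBN1 and Ad-scramble (SD, n = 3 each, limma adjusted p = 0.969).

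Cardiomyocyte markers had 7 of 10 tested genes higher and 0 lower, where 5.54% of all tested genes were called higher and 5.50% lower. Their sums were 132 to 138 FPKM in the libraries labelled Ad-SPTBN1 and 80.6 to 86.9 FPKM in those labelled Ad-scramble. Epicardial and mesothelial markers had 5 of 9 higher, with sums of 271.0 to 273 and 245 to 254 FPKM in the same order. Of 7 adipocyte markers 2 were tested and 1, Lpl, fell, with sums of 45.5 to 49.7 and 53.3 to 56.1 FPKM. The defining adipocyte genes Adipoq and Plin1 were at or under 0.195 FPKM in every library. Macrophage markers had 0 of 3 called by limma and 0 at an unadjusted p under 0.05. Their sums were 12.1 to 12.7 and 12.4 to 12.8 FPKM. Skeletal muscle markers had 1 of 3 higher, with sums of 21.2 to 23.6 and 18.7 to 19.7 FPKM. The gene called was Acta1, which made up most of the skeletal muscle sums, at 18.99 ± 1.04 and 15.79 ± 0.616 FPKM (SD). Tnnt3 and Mylpf were not called (limma adjusted p = 0.749 and 0.805). The skeletal muscle markers Myod1, Myog, Myh3 and Myh8, picked with their values known, were at or under 0.214 FPKM in every library. No marker on these 8 lists was listed at 0 in every library. Many were near 0, though. Means under 1 FPKM, which were not tested, were those of 5 of 15 cardiomyocyte, 5 of 7 adipocyte, 5 of 8 macrophage and 5 of 8 skeletal muscle markers. The part of the 8 cell types in the caveolar differences was not tested.

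**Figure D5:**
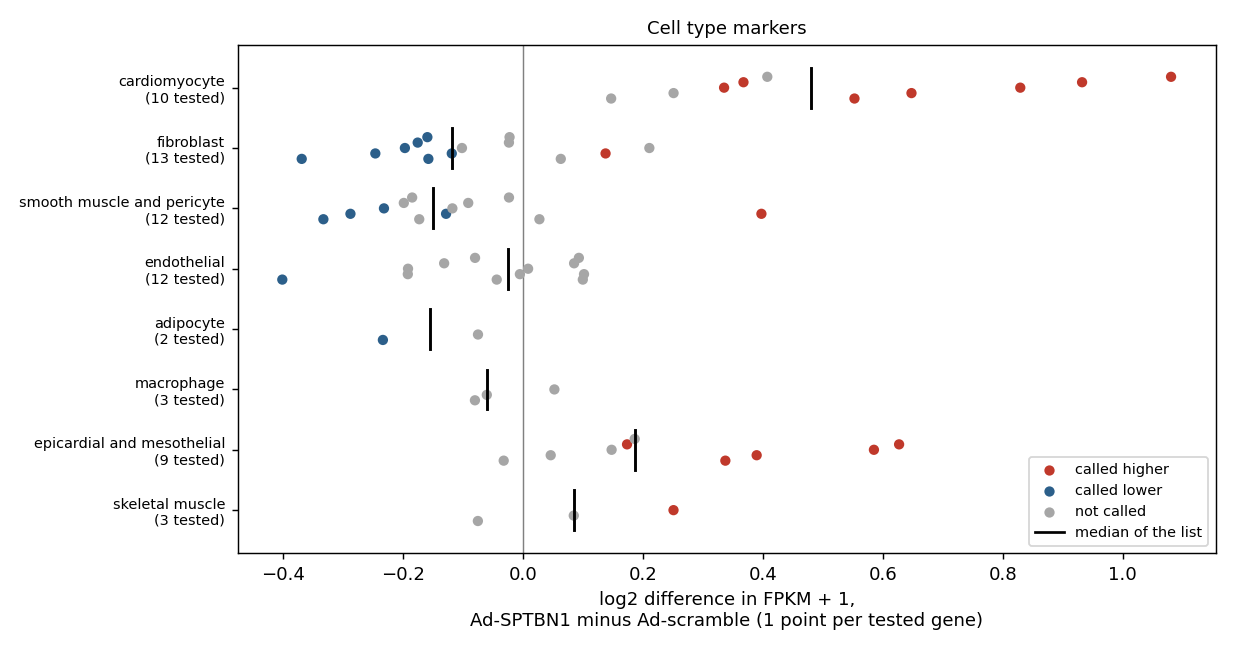
Log2 difference in FPKM + 1, Ad-SPTBN1 minus Ad-scramble (horizontal axis), of each tested marker of 8 cell types; red points were called higher, blue points called lower, grey points not called, and black bars are list medians. Cardiomyocyte and epicardial markers lie mostly above 0, and fibroblast and smooth muscle markers mostly below.

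The genes whose profile over the 6 libraries was nearest to that of Cav2 were Chmp2b, Cd99l2, Chsy3, Fgl2 and Vegfd. Nearness is the root mean square difference between profiles of log2(FPKM + 1), each centred on its own mean, and was 0.0641 for Chmp2b, a subunit of the ESCRT-III complex, and 0.0835 for Vegfd, a lymphatic growth factor. Chmp2b stood at 17.5, 14.9 and 15.9 FPKM in the libraries labelled Ad-SPTBN1, against 25.1, 26.4 and 28.2 FPKM in those labelled Ad-scramble. As in Cav2, Ad-SPTBN1 replicate 2 was the lowest and Ad-scramble replicate 3 the highest library. The 5 genes had Ad-SPTBN1 means of 57.3% to 62.1% of their Ad-scramble means, against 60.6% for Cav2. The choice of these genes fixes that likeness, so no test applies to it.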

How the data were processed

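RNA was sequenced in 6 libraries of mouse cells labelled neonatal cardiomyocytes. TRIzol extraction and NEBNext Ultra libraries are given per the labels' protocols. Expression came as FPKM in a single table that the authors deposited, a column for each library. The build is GRCm38 (mm10), per the submitters' processing notes. Not given in the sources used here: aligner, counter, annotation, strand.

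The scale was log2(FPKM + 1), on which folds of low genes come out too small. Under R 4.3.3, limma 3.58.1 fitted every gene, its prior variance following the mean level, and p-values were adjusted by Benjamini and Hochberg's method across the 12608 genes whose mean reached 1 FPKM. Genes with an adjusted p under 0.05 are called. Reads were recovered with exon lengths from GENCODE M21, which held 31065 of the gene IDs; 95.6% to 95.7% of values above 0 were whole within 0.1 reads. Counting errors assume independent reads and cover counting alone. No 2 columns were identical, and the chi-square per gene between libraries of a group was 2.73 to 4.07, where counting noise alone gives about 1. Of 50-base words in the members, 0.0581% in Pacsin2 and 0 in the others also occur in other genes.

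The members and lists were chosen with earlier results of these data known. Named genes were the members, the relatives, Sptbn1, the tested genes near Cav2 and the 5 nearest to it in profile. From each list came up to 4 called genes of smallest p, or its 2 most abundant where none was called. Other genes fall outside this rule and were named with their values known, which is not said at each. Among these are Acta2, Adipoq, Plin1, Tnnt3, Mylpf, Myl7, Pdgfra and Abcc9. Some marker genes under this rule are given by counts alone, and 1 gene that it names is not reported here. Tried as alternatives were pseudocounts of 0.1 and 5, no filter or a mean of 5 FPKM, 2 rescalings, no variance trend, library weights, a replicate block, voom on recovered reads, and each library left out.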

Additional observations from a re-analysis of the deposited data

How the results depend on the processing

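The signs of the differences of Cav2, Cavin3 and Cav1 were the same under all 16 alternatives. With a pseudocount of 5 FPKM the log2 difference of Cav2 was -0.46, where the larger pseudocount itself shrinks the value, and leaving out 1 library gave -0.69 to -0.58. The count of called members was 2 with no filter and with no trend in the prior variance, Cav1 being lost, and 2 to 3 without 1 library. Genes called over the table, 1391, numbered 665 with no filter (334 higher, 331 lower), 730 with the replicate block (369 higher, 361 lower) and 2146 with voom on recovered reads (1084 higher, 1062 lower). Without 1 library they numbered 622 to 864, with 302 to 441 higher and 320 to 438 lower. Genes called in the 7 lists, 19, numbered 9 with no filter, 8 with the replicate block, 30 with voom and 4 to 10 without 1 library. With no filter that was 8.91% of the list genes tested, against 2.14% of all tested genes. The block gave 8.60% against 5.79%, and voom 32.3% against 17.0%. With no filter more genes were tested, and without a library fewer samples were used. The causes of these changes in the counts were not tested. Deviations of same-numbered libraries correlated at -0.0338 to 0.0104. No shared deviation was seen, but pairs with little in common would look the same, so pairing by number is not settled. Under the block the called members were the same 3. The ratio of Cav2 to Cav1, 0.682 times that of Ad-scramble, was 0.666 to 0.707 without 1 library, and 4 of the 5 genes nearest to Cav2 were the same with a pseudocount of 0.1. Depth limits Cav2 most among the members, at 372 to 725 reads.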
